A study of Mus musculus with 12 samples.

Results

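The genes examined here were 9 chains of the mouse MHC class I molecules: the classical heavy chains H2-K1 and H2-D1, the light chain B2m, and the non-classical heavy chains H2-Q4, H2-Q6, H2-Q7, H2-T22, H2-T23 and H2-M3. They were chosen by name, with earlier results of these data known. Shares of all genes given beside counts of chains or of listed genes are therefore a description and no test. The chains are the entries of the count table whose Ensembl identifiers belong to these genes, and all 9 were found among 42687 genes. A filter on low counts kept 8 of them among the 13261 genes tested. H2-Q6, with 23 counts in all 12 libraries together, did not pass.

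A class I molecule is a heavy chain that binds a short peptide in its groove and is held in shape by the light chain beta-2 microglobulin. The classical chains show peptides from inside the cell to CD8+ T cells, and dendritic cells also load them with peptides taken from material they have engulfed. Their genes are known to be induced by interferons and, through a promoter module of the X and Y boxes, by the transactivator NLRC5. The non-classical chains have narrower roles in the recognition of formylated or leader peptides, stress and infection by CD8+, gamma delta and natural killer cells.

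The cells in all groups were DC2.4, a line of immortalised dendritic cells of the mouse, grown in RPMI medium with serum and labelled wild type, and their mRNA was sequenced. Control wells received PBS. The other groups received 15 µg/mL of extracellular vesicles of activated T cells (ATEV), 30 µg/mL of vesicles of non-activated T cells (NTEV), or 15 µg/mL of ATEV pretreated with Baseline-ZERO DNase, an enzyme that degrades DNA (DNase-ATEV). There were 3 libraries per group, 12 in all. The vesicle dose of NTEV therefore differed from that of the other vesicle groups; the labels tie the NTEV dose, and perhaps the ATEV dose too, to the same amount of vesicle DNA. The labels give 3 repeats of the procedure without saying whether these were rounds on the same cells or separate experiments, and nothing in them says that the libraries came from separate cultures. The p-values below therefore measure only the spread between these libraries, which may be technical.

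Libraries held 19.4 to 30.4 M gene counts. On the leading component of all genes, which carried 34.9% of the variance, replicate 1 of NTEV lay at -21.5, among the PBS libraries at -41.8 to -14.6, and away from the other NTEV libraries at 15.0 and 41.7. Replicate 1 of DNase-ATEV lay at -30.4, with the others at 4.41 and 9.81. Results for the chains that turn on such a library are given with and without it. The general myeloid markers of the line were abundant under PBS, with Cd68 at 985 and Spi1 at 154 CPM (counts per M counts of a library, after TMM scaling). Among dendritic cell genes Cd74 was at 97.2 CPM under PBS, Itgax at 16.1, Batf3 at 6.24 and Zbtb46 at 5.76, while Flt3 and Clec9a had 0 counts and the class II chain H2-Ab1 had 1 count. The 20 dendritic cell and macrophage markers summed to 4526 to 5050 CPM under PBS, 6043 to 8508 under ATEV, 5888 to 6712 under NTEV and 4473 to 4690 under DNase-ATEV, so this sum was higher under ATEV, as the class I chains were. Its largest part was Lyz2, at 1662 CPM under PBS and 3866 under ATEV, while Cd68 stood at 985 and 1023 CPM, Csf1r at 556 and 558 and Spi1 at 154 and 145. Of the 13 tested markers edgeR called 3 higher and 0 lower under ATEV (3.32% of all genes called higher), Lyz2, Itgax and Itgam. Itgax was at 39.4 CPM under ATEV (adjusted p = 0.0116), and Itgam at 134 against 94.2 under PBS (adjusted p = 0.0435). That count fell to 1 without PBS replicate 1, PBS replicate 2 or ATEV replicate 2. Under NTEV edgeR called Itgax and Itgam, 2 of 13 (1.7%), and 0 without PBS replicate 1 or 3 or NTEV replicate 2 or 3. That count was 4 with DESeq2 and 4 without NTEV replicate 1. Under DNase-ATEV edgeR called 0 of 13 and DESeq2 1, and 2 had an unadjusted p under 0.05 (5.96% of all genes). Itgax ran from 30.96 to 40.85 CPM under DNase-ATEV against 12.7 to 20.28 under PBS. Itgam ran from 113 to 116.4 CPM against 88.73 to 98.87. The median log2 fold change of the 13 markers was 0.18 under ATEV, and their part in the change of the chains was not tested. Of 18 T cell markers, 5 were at 0 in all 12 libraries, among them the T cell receptor genes Trbc1 and Trbc2 and the coreceptor Cd8a. The receptor gene Trac had 5 counts under PBS, 2 under ATEV, 6 under NTEV and 6 under DNase-ATEV, and Cd4 had 3, 4, 6 and 5. Lck was the most abundant, at a mean of 7.701 CPM under PBS, 11.7 under ATEV, 8.998 under NTEV and 11.15 under DNase-ATEV. Lck, Cd5 and Lat had higher means in each vesicle group than under PBS. The summed T cell markers stood at 9.44 to 12.0 CPM under PBS, 12.3 to 21.95 under ATEV, 10.7 to 14.6 under NTEV and 10.0 to 20.1 under DNase-ATEV, against 610.5 CPM for B2m alone under PBS, and of the 3 tested T cell markers 0 were called in any comparison by edgeR or DESeq2, and 0 had an unadjusted p under 0.05. In bulk RNA, more cells of a type and more RNA per cell cannot be told apart.

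The promoters of 5 chains are shown because the chains rose together under ATEV, and they let a reader see which short elements they share. The windows are the 200 bases before the first listed RefSeq start site, on the strand of the gene, from the RefSeq promoter table of build GRCm38.p6, in which all 9 chains were matched. Capitals mark matches to 6 motifs searched on both strands: the interferon-stimulated response element (ISRE, GAAA, any 2 bases, GAAA), the gamma-activated sequence (GAS, TTCNNNGAA), the NF-kB element (kB, GGGANTCCC), the core of the X2 box (TGACG), the Y box (CCAAT, or ATTGG on the other strand), and the string TTTCACTTCT, a form of the interferon consensus sequence that was added to the search after the windows had been read. The classical chain H2-K1 (minus strand, chr17:34000348-34000547), the light chain B2m (plus strand, chr2:122147487-122147686), H2-Q4 (plus strand, chr17:35379417-35379616), H2-Q7 (plus strand, chr17:35438955-35439154) and H2-T23 (minus strand, chr17:36032702-36032901) read as follows.
H2-K1: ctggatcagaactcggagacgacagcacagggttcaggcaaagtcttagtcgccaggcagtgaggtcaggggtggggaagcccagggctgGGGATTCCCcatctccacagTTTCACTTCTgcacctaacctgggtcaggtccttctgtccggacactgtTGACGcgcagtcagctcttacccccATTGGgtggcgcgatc
B2m: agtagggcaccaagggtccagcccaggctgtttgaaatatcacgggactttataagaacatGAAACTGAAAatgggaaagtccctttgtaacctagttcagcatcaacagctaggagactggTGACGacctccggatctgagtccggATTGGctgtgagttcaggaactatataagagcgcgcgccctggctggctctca
H2-Q4: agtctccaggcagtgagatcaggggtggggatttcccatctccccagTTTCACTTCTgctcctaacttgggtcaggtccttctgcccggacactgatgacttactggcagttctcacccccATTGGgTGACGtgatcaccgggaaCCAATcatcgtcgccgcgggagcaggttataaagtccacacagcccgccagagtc
H2-Q7: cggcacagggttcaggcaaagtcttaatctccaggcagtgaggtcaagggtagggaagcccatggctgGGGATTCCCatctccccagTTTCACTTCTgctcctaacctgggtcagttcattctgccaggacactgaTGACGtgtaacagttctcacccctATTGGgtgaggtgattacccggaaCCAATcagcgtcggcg
H2-T23: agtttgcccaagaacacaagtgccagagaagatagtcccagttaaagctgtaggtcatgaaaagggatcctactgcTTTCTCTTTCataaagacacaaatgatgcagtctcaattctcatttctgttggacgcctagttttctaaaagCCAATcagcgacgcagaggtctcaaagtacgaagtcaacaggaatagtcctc

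In H2-K1 the kB match lay 110 to 102 bases before the start site, the consensus string 90 to 81, the X2 core 41 to 37 and the Y box 16 to 12. H2-Q7 held the same elements in the same order, at 132 to 124, 113 to 104, 64 to 60 and 40 to 36 bases, with a further Y box at 16 to 12. The table lists a further start site for H2-K1, not shown, whose window also held a second Y box, 6 to 2 bases before it. H2-Q4 held the consensus string at 153 to 144, but no kB match of these letters. Its only match to the letters of the X2 core lay at 73 to 69, downstream of a Y box at 79 to 75. This is not the place of the X2 core of H2-Q7, where the letters of H2-Q4 differ. B2m and H2-T23 carried an ISRE instead, at 139 to 130 and at 124 to 115 bases. Over the 250 bases before the start site of all 9 chains, the string TTTCACTTCT was found in 6 (H2-K1, H2-D1, H2-Q4, H2-Q6, H2-Q7 and H2-M3) and in 0.131% of 32851 promoter windows. The ISRE was found in the other 3 (B2m, H2-T22 and H2-T23) and in 2.98% of windows. No window of a member held both, and no match of one motif overlapped a match of another. The kB motif was found in 4 members (H2-K1, H2-D1, H2-Q6 and H2-Q7) against 0.636% of windows, the GAS motif in H2-M3 alone against 7.02%, the X2 core in 7 against 17.8% and the Y box in all 9 against 33.8%. The letters of TTTCACTTCT were taken from the H2-K1 promoter itself, so the match in that chain was fixed in advance. Its count beside the share of all windows is therefore no test of enrichment. The heavy chain genes are related copies, so these matches are not separate observations, and a match is a description of the letters only.

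Levels between chains can be compared only per length. Divided by exon length (GENCODE M21), B2m was the most abundant chain under PBS, at 709.9 ± 56.9 CPM per kilobase (SD, n = 3, as for every mean below). H2-D1 followed at 161.6 ± 13.0 and H2-K1 at 152.5 ± 7.03, which did not differ beyond their spread. The non-classical chains lay far lower. H2-T23 stood at 11.4 ± 1.91 CPM per kilobase, H2-M3 at 8.15 ± 0.964, H2-T22 at 7.93 ± 1.22 and H2-Q4 at 4.97 ± 0.343, with H2-M3 and H2-T22 within each other's spread. H2-Q7, at 0.0568 ± 0.0173, and H2-Q6, at 0.0133 ± 0.0115, were close to the limit of counting. Under ATEV, H2-Q4 at 24.1 ± 3.37 CPM per kilobase stood above H2-T22 at 18.3 ± 1.52 and H2-M3 at 17.3 ± 1.78. By this length its place in the order moved from below these chains to above them. B2m at 1204 ± 159, H2-D1 at 315 ± 15.7 and H2-K1 at 256 ± 19.9 kept the leading places. By this length H2-D1 and H2-K1 no longer overlapped. The transcript with the longest coding sequence is shorter to an uneven degree. It has 1793 against 2596 bases for H2-Q4, 1761 against 3414 for H2-T22, 1619 against 2938 for H2-K1 and 2102 against 2579 for H2-D1. H2-M3 has 1438 bases by either. The orders of H2-Q4 with H2-T22, H2-M3 with H2-T22 and H2-D1 with H2-K1 therefore depend on the length chosen.

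ATEV against PBS asks whether vesicles of activated T cells change the mRNA of the chains. All 8 tested chains rose, by 1.68-fold for H2-K1 to 16.6-fold for H2-Q7. The classical chains and B2m rose least, and H2-Q4 and H2-Q7 rose most. In these libraries 3.32% of all tested genes were called higher (adjusted p under 0.05, edgeR quasi-likelihood test), and 4.74% were called in either direction. The 3 ATEV libraries lay above the 3 PBS libraries for all 8 chains, which was so for 16.3% of all genes. The median log2 fold change of the 8 chains was 1.14, against 0.03 over all genes. Together the 9 chains took 0.147, 0.155 and 0.155% of all counts in the PBS libraries and 0.326, 0.281 and 0.255% in the ATEV libraries.

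The classical chains rose by less than the others but from a high level. H2-K1 was at 465, 453 and 425 CPM in PBS replicates 1 to 3 and at 817, 738 and 703 CPM in ATEV replicates 1 to 3. Every ATEV library was above every PBS library, and the fitted difference was 0.75 ± 0.11 on the log2 scale (SE of the fit, here and below; adjusted p = 0.00238). H2-D1 was at 455, 395 and 401 CPM under PBS and at 844, 825 and 766 CPM under ATEV, again without overlap, a log2 fold change of 0.96 ± 0.13 (adjusted p = 0.000970). B2m, whose product pairs with every heavy chain named here, was at 556, 650 and 625 CPM under PBS and at 1183, 1009 and 913 CPM under ATEV. Its log2 fold change was 0.76 ± 0.15 (adjusted p = 0.0124), close in size to that of H2-K1. B2m was no longer called when PBS replicate 1 or 2 was left out, and its adjusted p then reached 0.0645. The calls of the other 7 chains held in all 12 fits that each left out 1 library.

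The Q region chains showed the steepest rises. H2-Q4 was at 13.9, 12.1 and 12.7 CPM under PBS and at 71.9, 61.4 and 54.5 CPM under ATEV. Even the lowest ATEV library stood far above the highest PBS library, and the log2 fold change was 2.28 ± 0.25 (adjusted p = 0.000256). H2-Q7, a chain of the Qa-2 antigen, had 8, 5 and 4 counts in the PBS libraries and 90, 86 and 84 counts in the ATEV libraries. This is 0.320, 0.235 and 0.172 CPM against 3.87, 4.11 and 4.45 CPM, a log2 fold change of 4.06 ± 0.46 (adjusted p = 0.000289), and even under ATEV it remained the lowest of the tested chains. H2-Q6, its close copy, had 1, 0 and 1 counts under PBS and 6, 7 and 2 under ATEV. The 15 counts against 2 give a ratio of 8.28 (95% exact counting interval 1.92 to 74.6, counting error only). Fitted without the filter, its adjusted p was 0.113.

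The T and M region chains lay between these extremes. H2-T23 encodes Qa-1, which shows leader peptides of other class I chains to receptors of natural killer cells. It was at 27.5, 38.5 and 33.1 CPM under PBS and at 119, 85.1 and 83.1 CPM under ATEV, a log2 fold change of 1.54 ± 0.24 (adjusted p = 0.00324). H2-T22, a ligand of some gamma delta T cell receptors, was at 23.5, 26.1 and 31.6 CPM under PBS and at 56.3, 64.9 and 65.7 CPM under ATEV. Its rise was 1.20 ± 0.15 on the log2 scale (adjusted p = 0.000720), and the groups did not overlap. H2-M3, which presents N-formylated peptides, was at 11.7, 10.33 and 13.1 CPM under PBS and at 21.9, 26.1 and 26.6 CPM under ATEV, a rise of 1.08 ± 0.14 (adjusted p = 0.000897). The plot of levels by library shows all 9 chains in the 4 groups.

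**Figure D1:**
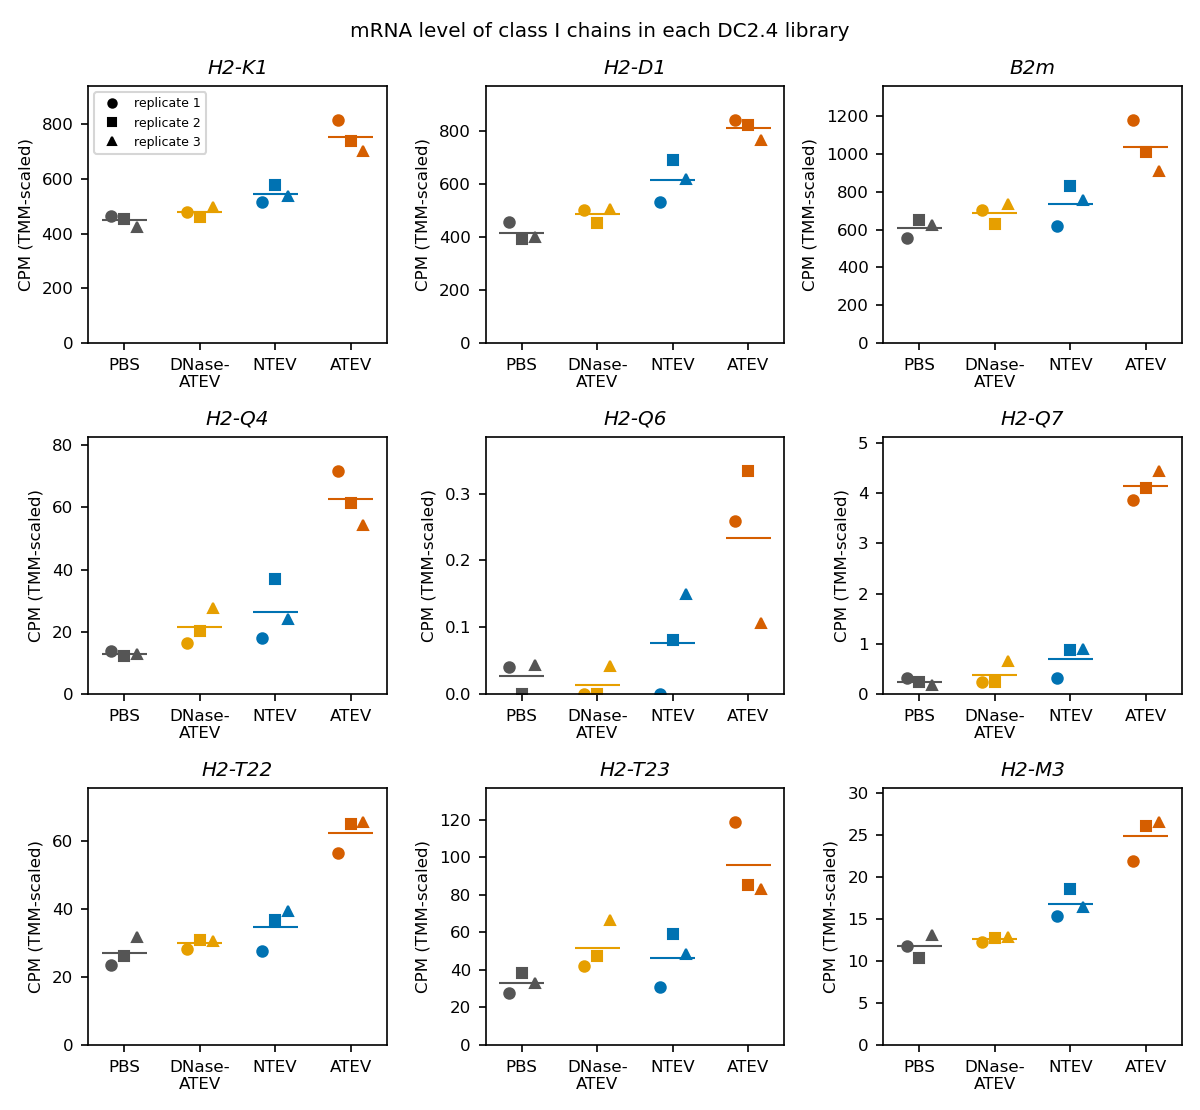
Level of each class I chain (CPM after TMM scaling, linear axes from 0, own scale per chain) in the 12 libraries by group; symbols mark replicates and lines group means. The 3 ATEV libraries lie above all PBS, NTEV and DNase-ATEV libraries for each of the 8 tested chains, and for H2-Q6, with 23 counts in all, they lie above PBS and DNase-ATEV but overlap NTEV.

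DNase-ATEV against PBS asks what remained of this change once the vesicles had been treated with DNase. None of the 8 chains was called, and log2 fold changes ran from 0.09 for H2-K1 to 0.73 for H2-Q4, all above 0. By edgeR's test 0% of all genes were called in this comparison; 5.96% of genes and 2 of the 8 chains, H2-Q4 and H2-T23, had an unadjusted p under 0.05. DESeq2, which called 38 genes in all, called none of the chains. H2-Q4 was at 16.6, 20.2 and 27.6 CPM in the DNase-ATEV libraries, all above the PBS libraries, with a log2 fold change of 0.73 ± 0.24 (95% interval 0.21 to 1.26, adjusted p = 0.708). H2-T23 was at 41.8, 47.2 and 66.5 CPM, also above every PBS library, with a log2 fold change of 0.65 ± 0.24 (95% interval 0.13 to 1.17, adjusted p = 0.725). No other chain lay above PBS in all libraries, while 7.692% of all genes did. The classical chains were close to PBS. H2-K1 stood at 477, 461 and 497 CPM, with an interval of -0.15 to 0.34 on the log2 scale. H2-D1 was at 501, 452 and 505 CPM, with an interval of -0.06 to 0.50.

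The direct comparison of ATEV with DNase-ATEV, at the same vesicle dose, asks whether the response was lower after the pretreatment. No group is labelled as vesicles put through these steps without the enzyme. Removal of DNA, the enzyme itself and the handling therefore cannot be told apart. All 8 tested chains were higher under ATEV in every library, which was so for 10.14% of all genes, and 6 were called, against 1.32% of all genes called higher (1.46% in either direction). H2-Q7, at 0.241, 0.237 and 0.668 CPM in the DNase-ATEV libraries, was lower than under ATEV by 3.39 ± 0.43 on the log2 scale (adjusted p = 0.00118). H2-Q4 differed by 1.54 ± 0.24 (adjusted p = 0.00490), at 16.6 to 27.6 CPM under DNase-ATEV against 54.5 to 71.9 CPM under ATEV. H2-T22, at 28.2, 30.9 and 30.7 CPM under DNase-ATEV, differed by 1.06 ± 0.15 (adjusted p = 0.00330). H2-M3, at 12.2, 12.7 and 12.9 CPM, differed by 0.98 ± 0.14 (adjusted p = 0.00360). Both T22 and M3 thus sat within their PBS range after the pretreatment. H2-K1 differed by 0.65 ± 0.11 (adjusted p = 0.00952) and H2-D1 by 0.74 ± 0.13 (adjusted p = 0.00962). The call of H2-K1 was lost without DNase-ATEV replicate 2 (adjusted p = 0.0838), and that of H2-D1 without ATEV replicate 2 or DNase-ATEV replicate 2 (adjusted p up to 0.0863). B2m, at 703, 633 and 737 CPM under DNase-ATEV, differed by 0.58 ± 0.15 (adjusted p = 0.0802), and H2-T23 by 0.88 ± 0.24 (adjusted p = 0.104). Neither passed, though both were called by DESeq2 and when NTEV replicate 1 was left out of the fit. ATEV against PBS and ATEV against DNase-ATEV share the ATEV libraries, so their values are not independent.

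**Figure D2:**
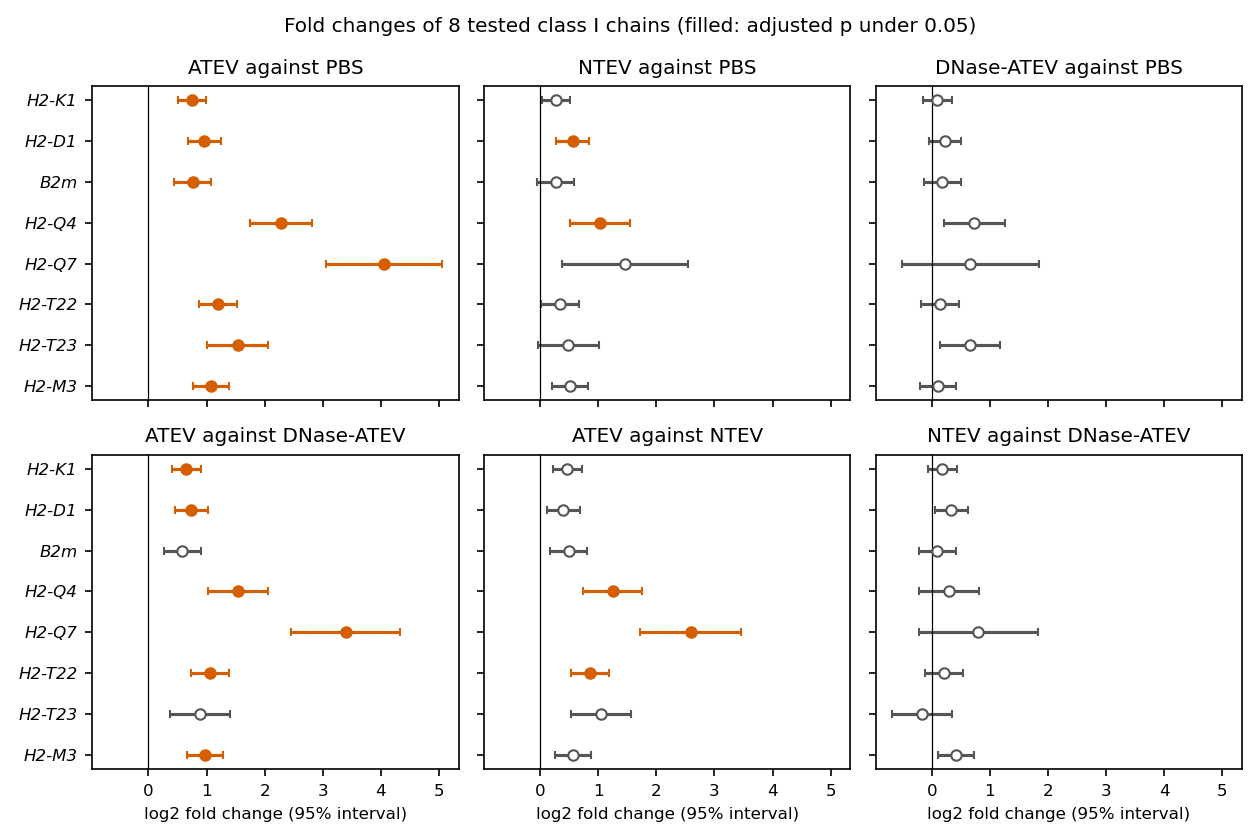
Log2 fold change of the 8 tested chains (points, with 95% intervals as bars) in the 6 comparisons of the 4 groups; filled points have an adjusted p under 0.05. All 8 points are filled for ATEV against PBS and none for DNase-ATEV against PBS, with 6 filled for ATEV against DNase-ATEV, 3 for ATEV against NTEV and 2 for NTEV against PBS.

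NTEV against PBS asks how the chains stood after vesicles from non-activated T cells. H2-D1 and H2-Q4 were called higher by edgeR, 2 of 8 chains, where 1.7% of all genes were called higher and 2.31% in either direction. H2-D1 was at 532, 693 and 618 CPM in the NTEV libraries, above every PBS library, with a log2 fold change of 0.56 ± 0.13 (adjusted p = 0.0412). H2-Q4 was at 18.1, 37.1 and 24.01 CPM, with a log2 fold change of 1.03 ± 0.24 (adjusted p = 0.0441). Replicate 1 was the lowest NTEV library for both, as it was for all 8 tested chains. H2-K1, at 515, 576 and 538 CPM, and H2-M3, at 15.4, 18.5 and 16.5 CPM, also lay above every PBS library but were not called by edgeR (log2 fold changes 0.28 ± 0.11 and 0.52 ± 0.14, adjusted p = 0.206 and 0.0805). DESeq2 called H2-M3 as well (adjusted p = 0.0133), 3 chains in all. In all, 4 of 8 chains did not overlap, against 12.76% of all genes. B2m, at 617, 833 and 759 CPM, overlapped PBS (0.27 ± 0.15, adjusted p = 0.335), as did H2-Q7, at 0.311, 0.881 and 0.895 CPM (1.46 ± 0.51, adjusted p = 0.145). H2-T22 (27.5, 36.7 and 39.4 CPM, adjusted p = 0.229) and H2-T23 (31.2, 59.3 and 48.5 CPM, adjusted p = 0.287) overlapped it too.

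The count of called chains under NTEV depended on single libraries. Without NTEV replicate 1, 6 chains were called, all but H2-K1 and B2m, while the count over all genes moved from 306 to 1685. The call of H2-D1 held only without ATEV replicate 3 or NTEV replicate 1, and that of H2-Q4 only without NTEV replicate 1, DNase-ATEV replicate 1 or DNase-ATEV replicate 3. In the other fits that left out 1 library, the adjusted p reached 0.198 for H2-D1 and 0.166 for H2-Q4.

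ATEV against NTEV sets the vesicle kinds side by side at their different vesicle doses. All 8 chains were again higher under ATEV in every library (8.612% of all genes), and 3 were called, against 0.875% of all genes called higher and 0.935% in either direction. H2-Q7 differed by 2.59 ± 0.40 (adjusted p = 0.00489), H2-Q4 by 1.25 ± 0.24 (adjusted p = 0.0219) and H2-T22 by 0.85 ± 0.15 (adjusted p = 0.0129). The call of H2-Q7 held without any 1 library. That of H2-Q4 was lost without ATEV replicate 2, ATEV replicate 3, NTEV replicate 1 or NTEV replicate 3, and that of H2-T22 without ATEV replicate 2 or ATEV replicate 3. The difference was 0.47 ± 0.11 for H2-K1 (adjusted p = 0.0904), 0.40 ± 0.13 for H2-D1 (adjusted p = 0.212) and 0.49 ± 0.15 for B2m (adjusted p = 0.183), and DESeq2 called 7 of the 8 chains. Between NTEV and DNase-ATEV no chain was called by edgeR or DESeq2, where 0.679% of all genes were called by edgeR. An unadjusted p under 0.05 was found for 2 chains and for 12.3% of all genes. For H2-K1, H2-D1 and H2-M3 all NTEV libraries lay above all DNase-ATEV libraries, and how often this held over all genes was not counted. The replicate numbers were taken to pair these libraries, from the data and not from the labels. With the replicate number as a block 0 chains and 41 genes in all were called, against 90 without it. Log2 differences there ran from -0.16 for H2-T23 to 0.80 for H2-Q7.

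Ratios of counts within a library do not depend on how libraries are scaled, and they show whether the heavy chains moved in step with the light chain. The ratio of H2-K1 to B2m stayed at 0.738 ± 0.0861 under PBS, 0.730 ± 0.0396 under ATEV, 0.744 ± 0.0779 under NTEV and 0.694 ± 0.0299 under DNase-ATEV, and an exact permutation test over the 4 groups gave an adjusted p = 0.774 (9 ratios). The ratio of H2-Q4 to B2m was 0.0213 ± 0.00327 under PBS and 0.0605 ± 0.000649 under ATEV, with 0.0352 ± 0.00818 under NTEV and 0.0310 ± 0.00697 under DNase-ATEV between them (exact permutation test, adjusted p = 0.0140). Its ATEV libraries fell within 0.0597 to 0.0609. H2-Q7 to B2m also differed between the groups (exact permutation test, adjusted p = 0.0155), from 0.000439 ± 0.000155 under PBS to 0.00410 ± 0.000806 under ATEV. These calls held without any 1 library.

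H2-T23 to B2m stood at 0.0539 ± 0.00494 under PBS, 0.0920 ± 0.00816 under ATEV, 0.0619 ± 0.0105 under NTEV and 0.0748 ± 0.0153 under DNase-ATEV (exact permutation test, adjusted p = 0.0352). The ratio of the classical chains to each other moved as well. H2-D1 to H2-K1 was 0.930 ± 0.0551 under PBS, 1.08 ± 0.0430 under ATEV, 1.13 ± 0.0867 under NTEV and 1.02 ± 0.0343 under DNase-ATEV (exact permutation test, adjusted p = 0.0255), so that H2-D1 gained on H2-K1 in each vesicle group's mean. The call of H2-T23 to B2m was lost without any 1 of the PBS or ATEV libraries, NTEV replicate 3 or DNase-ATEV replicate 2 (adjusted p up to 0.101). That of H2-D1 to H2-K1 was lost without PBS replicate 2, PBS replicate 3, ATEV replicate 3 or NTEV replicate 3 (adjusted p up to 0.117). The ratios to B2m of H2-D1 (adjusted p = 0.149), H2-T22 (adjusted p = 0.133), H2-M3 (adjusted p = 0.180) and H2-Q6 (adjusted p = 0.167) did not pass in the same exact permutation test. Pairwise tests of ratios were not made, since 3 libraries against 3 cannot give a p below 0.10.

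**Figure D3:**
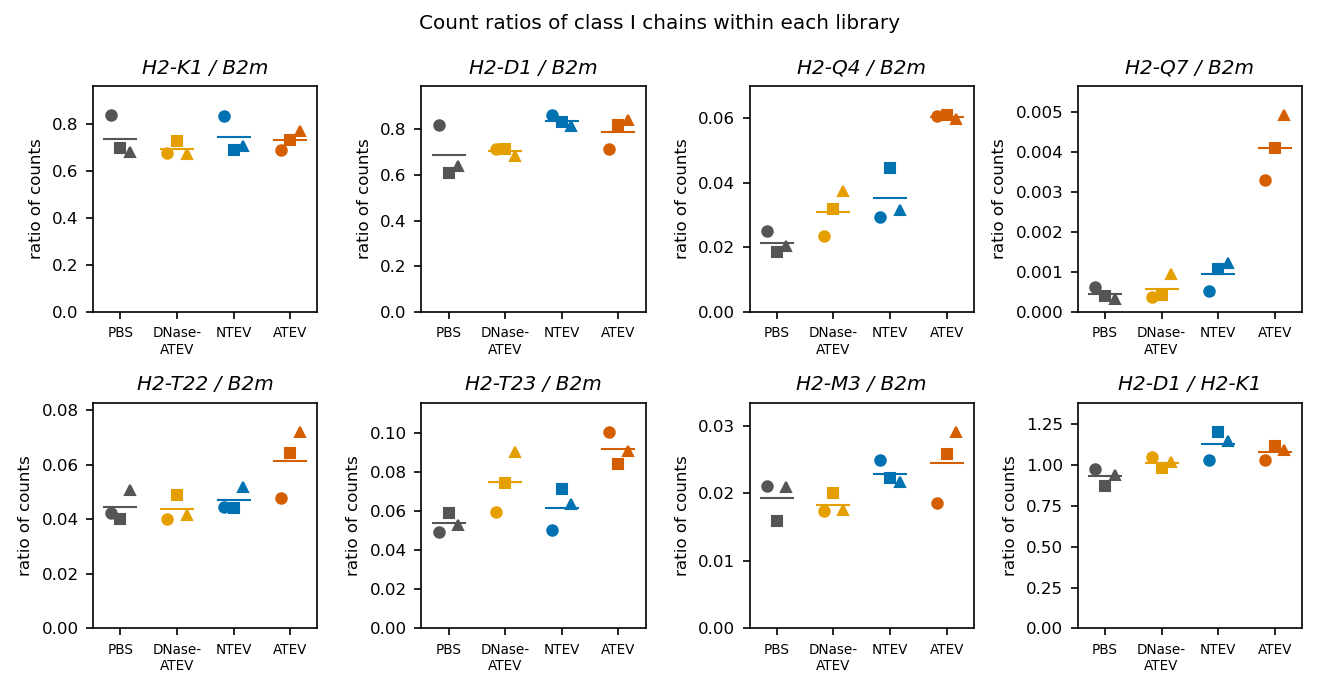
Ratio of counts within each library for 8 pairs of chains, by group (linear axes from 0, symbols as replicates, lines as group means). H2-K1 to B2m stays near 0.7 in all groups, and H2-Q4 to B2m and H2-Q7 to B2m are higher in the 3 ATEV libraries than in the other 9.

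The class I genes are near copies of each other, and how reads with several matches were counted is not stated in the labels or the table, which leaves the counts of close copies uncertain. Of all stretches of 50 bases in the transcript, 44.7% of H2-T22 were also found in another gene, 37.9% in H2-T10 alone. For H2-Q7 it was 40.2% (20.1% in H2-Q5 and 19.6% in H2-Q6), for H2-Q6 32.0%, for H2-T23 28.8% and for H2-Q4 24.3%. The classical chains shared less, 14.3% for H2-D1 and 8.8% for H2-K1, though their coding sequences were 92.0% identical. B2m shared none and H2-M3 0.6%. The coding sequences of H2-Q6 and H2-Q7 were 95.4% identical. Summed to 1 gene, they rose by 3.98 ± 0.48 on the log2 scale against PBS (adjusted p = 0.000451). H2-Q7 gave 352 counts to this sum and H2-Q6 23, so it largely repeats H2-Q7, and H2-Q5 was not in it. All heavy chain genes in the table summed to 1 gene rose by 0.94 ± 0.13 (adjusted p = 0.00108) and were higher under ATEV than under DNase-ATEV by 0.75 ± 0.13 (adjusted p = 0.00815). For NTEV against PBS the sum gave 0.44 ± 0.13 (adjusted p = 0.0934). H2-D1 with 157638 counts and H2-K1 with 150526 made up most of this sum, followed by H2-T23 with 15208. No sum of H2-T22 and H2-T10 alone was made.

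**Figure D4:**
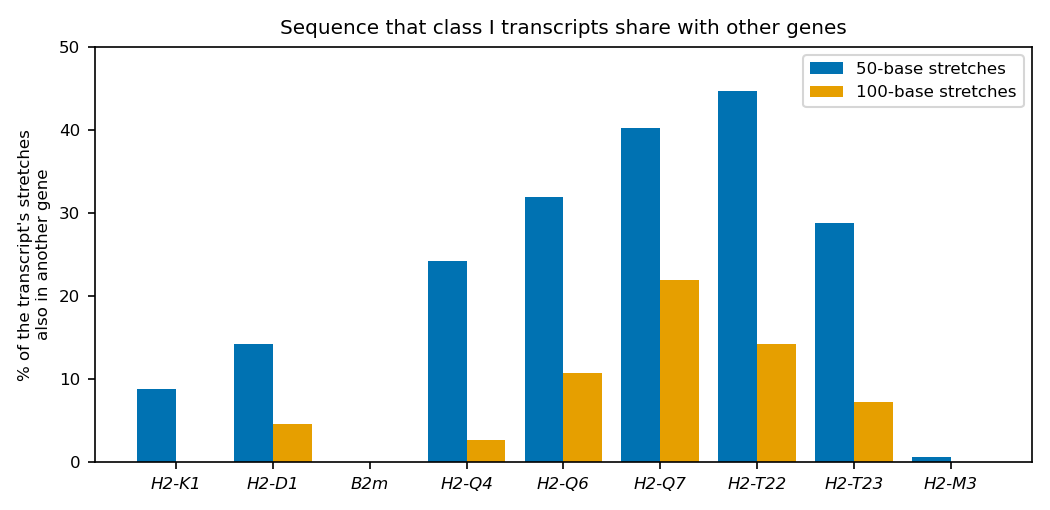
Share of all 50-base and 100-base stretches of each chain's transcript that also occur in another annotated gene (bars from 0, in percent, GENCODE M21). H2-T22 and H2-Q7 share most, at 44.7% and 40.2% of 50-base stretches, and B2m shares none.

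Some chains also overlap genes on the other strand, whose reads cannot be told apart without knowing the strand setting of the counting. H2-Q4 overlaps the antisense gene Gm11131, which had 6 counts under PBS, 62 under ATEV, 29 under NTEV and 7 under DNase-ATEV, while H2-Q4 itself had 900, 3983, 1933 and 1431 counts in these groups. H2-T22 and H2-T23 overlap A930015D03Rik, with 52 counts under PBS and 77 under ATEV. B2m overlaps Patl2, which had at most 6 counts in a group.

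Of 36 other class I and class I-like genes looked for, 28 were in the table and 10 passed the filter. Under ATEV 5 of these 10 were called higher and none lower against PBS, where 3.32% of all genes were called higher, and their median log2 fold change was 1.08 against 0.03 over all genes. The heavy chains among them were low. H2-T10, the close copy of H2-T22, stood at 0.802 CPM under PBS and rose to 5.47 CPM (2.76 ± 0.31 on the log2 scale, adjusted p = 0.000275). H2-Q5, which shares sequence with H2-Q7, rose from 0.272 to 3.81 CPM (3.78 ± 0.47, adjusted p = 0.000573), and H2-T24 from 1.67 to 6.26 CPM (1.90 ± 0.29, adjusted p = 0.00239). H2-T-ps rose by 1.32 ± 0.28 (adjusted p = 0.0197), and H2-K2, at 4.29 CPM under PBS and 6.02 under ATEV, did not pass (0.49 ± 0.44, adjusted p = 0.492). The remaining call was Procr, the protein C receptor with a class I-like fold, named after its values were seen. It was higher under ATEV by 0.94 ± 0.22 (adjusted p = 0.0323), and under NTEV by 1.47 ± 0.22 (adjusted p = 0.00847), where edgeR called 1 other gene of the list, H2-T10 (1.47 ± 0.31, adjusted p = 0.0297). That count of 2 under NTEV (1.7% of all genes) was 4 with DESeq2 and 1 with limma-voom. It rose to 5 without NTEV replicate 1 and fell to 1 without any 1 of the PBS libraries, NTEV replicate 2 or NTEV replicate 3. The count under ATEV fell to 3 without PBS replicate 2, PBS replicate 3 or ATEV replicate 2. Under DNase-ATEV 0 of the 10 were called by edgeR or DESeq2, and 5 had an unadjusted p under 0.05 (5.96% of all genes), with H2-T10 at 1.89 CPM (1.23 ± 0.31, adjusted p = 0.447).

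Of 19 genes that supply and load peptides, 9 were called higher and 1 lower under ATEV against PBS, where 3.32% of all genes were called higher. Against DNase-ATEV 9 were called higher (1.32% of all genes) and against NTEV 8 (0.875%). The median log2 fold change of the list against PBS was 0.51 under ATEV, -0.13 under NTEV and 0.04 under DNase-ATEV. For NTEV against PBS edgeR called 0 and DESeq2 2, and for DNase-ATEV against PBS both called 0, with 3 genes at an unadjusted p under 0.05 in each (19.1 and 5.96% of all genes). Without NTEV replicate 1 edgeR called 2 of the list higher for NTEV against PBS, and 1685 genes in all. Psmb9, a catalytic subunit of the immunoproteasome, rose from 14.6 to 70.0 CPM (2.26 ± 0.19, adjusted p = 2.17e-05). Tap1, a subunit of the peptide transporter, rose from 32.8 to 144 CPM (2.14 ± 0.22, adjusted p = 0.000140). Tapbpl, a peptide editor, rose from 7.35 to 24.7 CPM (1.75 ± 0.19, adjusted p = 0.000243). The gene that was lower was Npepps, a cytosolic aminopeptidase, named after its values were seen (-0.48 ± 0.12, adjusted p = 0.0455). Its call held in 3 of the 12 fits that left out 1 library (adjusted p up to 0.179). The 9 higher calls against PBS fell to 6 without PBS replicate 2. With the replicate number as a block, 10 genes of the list were called higher and 3 lower. Under NTEV, Tap1 was at 56.3 CPM (0.78 ± 0.21, adjusted p = 0.0749) and Psmb9 at 16.2 CPM (0.14 ± 0.18, adjusted p = 0.692). The 9 calls against DNase-ATEV fell to 5 without ATEV replicate 2 or ATEV replicate 3 and to 4 without DNase-ATEV replicate 2 or DNase-ATEV replicate 3, and the 8 against NTEV to 4 without NTEV replicate 3.

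Of 21 transcription factors and cofactors of class I genes, 7 were called higher and none lower under ATEV against PBS (3.32% of all genes called higher). Against NTEV 5 were called higher (0.875%), as were 5 against DNase-ATEV (1.32%). The median of the list against PBS was 0.15 under ATEV on the log2 scale, against 0.03 over all genes. For NTEV against PBS edgeR called 0 and DESeq2 1, with 2 at an unadjusted p under 0.05 (19.1% of all genes). Without NTEV replicate 1 edgeR called 2 of the list higher and 1 lower there, and 1685 genes in all. For DNase-ATEV against PBS both called 0, with 1 at an unadjusted p under 0.05 (5.96%). Nlrc5, the class I transactivator, rose from 54.6 to 115 CPM (1.07 ± 0.13, adjusted p = 0.000353). Rfx5, a subunit of the complex on the X box, was at 28.8 CPM under PBS and 31.9 under ATEV (0.15 ± 0.19, adjusted p = 0.630). Of the interferon regulatory factors, Irf1 and Irf7 rose by more than Nlrc5, while Irf8 rose by 0.55 ± 0.13 (adjusted p = 0.0322) and Irf2 did not pass (0.20 ± 0.11, adjusted p = 0.231). Irf9 was also called higher (adjusted p = 0.00293). Its call held in all 12 fits that left out 1 library, and that of Irf8 in 5. Irf2, Irf8 and Irf9 were named after their values were seen. Irf1 rose from 17.3 to 123 CPM (2.83 ± 0.37, adjusted p = 0.000786) and Irf7 from 3.34 to 14.2 CPM (2.08 ± 0.26, adjusted p = 0.000561). Under NTEV Irf1 was at 16.9 CPM (-0.03 ± 0.35, adjusted p = 0.969) and Nlrc5 at 61.2 CPM (0.16 ± 0.12, adjusted p = 0.488). The 21 genes of the list ran from -0.43 to 1.27 on the log2 scale there, and a link to the chains was not tested. Of the 9 tested genes of class I turnover and cross-presentation, edgeR called 0 against PBS under ATEV, NTEV or DNase-ATEV, with 4, 3 and 0 at an unadjusted p under 0.05 (26.8, 19.1 and 5.96% of all genes). DESeq2 called 2 under ATEV, 2 under NTEV and 0 under DNase-ATEV, and with the replicate number as a block edgeR called 2, 1 and 0. Without NTEV replicate 1 edgeR called 2 under ATEV and 2 under NTEV. Without DNase-ATEV replicate 1 it called 1 and 1, and without NTEV replicate 2 it called 2 and 0. Cybb, a subunit of the phagocyte oxidase, was the 1 gene called in other comparisons and was named after its values were seen. It was higher than under DNase-ATEV both under ATEV (1.00 ± 0.20, adjusted p = 0.0239) and under NTEV (1.04 ± 0.20, adjusted p = 0.0380, and 0.0603 with the replicate number as a block). The count of 1 against DNase-ATEV fell to 0 for ATEV without ATEV replicate 2 or 3 or DNase-ATEV replicate 2 or 3, and for NTEV without PBS replicate 2 or 3, ATEV replicate 2, NTEV replicate 2 or 3 or DNase-ATEV replicate 2 or 3.

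Over the 12 libraries the 8 tested chains followed each other with Pearson's r from 0.772 (H2-T23 with H2-M3) to 0.965 (H2-K1 with H2-Q7), with no test attached, since the 12 libraries share their groups and their scaling. Among 9481 other genes of at least 5 CPM, the gene most like the mean of the chains was Tap1 (r = 0.993), followed by Casp4 (0.965), Rit1 (0.963), Hcfc2 (0.951) and Lgals3bp (0.951). After group means were removed, r was 0.930 for Tap1, 0.911 for Hcfc2, 0.808 for Rit1, 0.712 for Casp4 and 0.542 for Lgals3bp. Among the genes most like H2-K1 alone were Tap1 (0.970), Tap2 (0.963), Irf7 (0.954) and Tapbp (0.935). With group means removed these fell to between 0.183 for Tapbp and 0.840 for Irf7.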

How the data were processed

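Per the labels' protocols, stranded mRNA libraries (TruSeq) were made from column-purified RNA. Build mm9 and the tools Cufflinks 2.1.1, TopHat, TopHat2 2.0.11 and bcl2fastq 2.19 are listed in the submitters' processing notes; the read counter, its annotation and its strand setting are not given in the sources used here. The deposited table holds whole-number counts per Ensembl gene, 1 column per library, with no normalization visible in the values; 42250 of 42687 identifiers were matched to GENCODE M21 symbols, used for names, transcript sequence and exon length only.

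Counts were fitted in R 4.3.3 with edgeR 4.0.16 (filterByExpr with a minimum count of 10 and total of 15, TMM scaling, quasi-likelihood F test, 1 mean per group over all 12 libraries, 6 contrasts, two-sided). Adjusted p-values are Benjamini-Hochberg over 13261 genes unless an exact permutation test is named, and a gene is called under 0.05. Ratios (counts plus 0.5) were tested by enumerating all 15400 assignments of libraries to the 4 groups, adjusted over 9 ratios. Library totals were 19.4 to 30.4 M counts. Replicates differed by more than counting noise, so none was a copy of another and their spread, more than depth, set the precision. Same-numbered libraries of NTEV and DNase-ATEV had deviations that correlated at 0.619, 0.346 and 0.129, so numbers were taken to pair them, from the data and not from the labels; no other 2 groups met this. DESeq2 1.42.0, limma 3.58.1 (voom), other scalings, no filter, a replicate block, the 2 groups alone, summed copies and leaving out each library were alternatives. The fit was tested on simulated counts.

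The members, lists and motifs were chosen with earlier results of these data known. All members are named; from each list the 3 called genes with the smallest adjusted p under ATEV, the heavy chains, Nlrc5, Rfx5 and Irf1 are named (1 further gene is not reported here), and others are said to be chosen after their values were seen. List counts with a library left out or with DESeq2, and the search for TTTCACTTCT, a string copied from the H2-K1 promoter, were added after seeing the data. Promoter windows come from RefSeq (GRCm38.p6); no other coordinates are given, since the builds differ.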

Additional observations from a re-analysis of the deposited data

How the results depend on the processing

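Among alternative values of single chains, 938 kept their direction and side of the threshold, 39 lost a call, 18 gained one and 5 changed sign. All 5 were uncalled differences with 1 library left out. Over these fits H2-Q7 in DNase-ATEV against PBS ran from -0.030 (without DNase-ATEV replicate 3) to 0.94 on the log2 scale. In NTEV against DNase-ATEV, B2m ran from -0.018 to 0.21, H2-Q4 from -0.043 to 0.52 and H2-T23 from -0.40 to 0.060. The lowest value of each came without NTEV replicate 2; H2-T23 was above 0 without NTEV replicate 1 or DNase-ATEV replicate 3 (0.048).

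The number of chains called in ATEV against PBS was 8 in each alternative that kept all libraries, and 7 to 8 when 1 library was left out. For ATEV against DNase-ATEV it was 6, but 8 with DESeq2, 7 with no filter and 5 with the 2 groups alone (H2-K1 lost its call, adjusted p = 0.0711), and 4 to 8 when 1 library was left out (4 without DNase-ATEV replicate 2). For NTEV against PBS it was 2, but 3 with DESeq2, 1 with upper quartile scaling, library totals or limma-voom, 0 with the 2 groups alone, and 0 to 6 when 1 library was left out. For ATEV against NTEV it was 3, but 7 with DESeq2, 4 with no filter, 1 with the 2 groups alone, and 1 to 4 when 1 library was left out (1 without ATEV replicate 2 or ATEV replicate 3). DNase-ATEV against PBS and NTEV against DNase-ATEV gave 0 throughout. The heavy chains summed to 1 gene were called in 2 of 6 comparisons, 1 to 3 when 1 library was left out (1 without DNase-ATEV replicate 2). H2-Q6 and H2-Q7 summed were called in 3, and 3 to 4 when 1 library was left out. Of 9 ratios 4 were called, and 2 to 5 when 1 library was left out (2 without PBS replicate 2, PBS replicate 3, ATEV replicate 3 or NTEV replicate 3). The cause of these shifts was not tested.

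Over all groups 6 of 18 same-numbered pairs had deviations that correlated above 0.1, from -0.382 to 0.619. Only for NTEV with DNase-ATEV were all 3 above 0.1. Replicate 1 of PBS also correlated with replicate 1 of NTEV (0.519) and of DNase-ATEV (0.440). Differently numbered libraries were not compared, so the pairing stays an assumption. With the replicate number as a block, NTEV against PBS gave 1 call, H2-D1 (adjusted p = 0.0464, edgeR), with H2-Q4 at 0.0631, and the counts of chains in the other comparisons, of the summed genes and of the ratios were the same. Over all genes the block gave 1440 calls for ATEV against PBS against 628 without it. The background moved with the tool: DESeq2 called 1538 genes for ATEV against PBS where edgeR called 628, 861 against 306 for NTEV against PBS, 495 against 194 for ATEV against DNase-ATEV, 373 against 124 for ATEV against NTEV, 391 against 90 for NTEV against DNase-ATEV and 38 against 0 for DNase-ATEV against PBS. Scaling moved the median of all genes by less than 0.1 (log2). Depth limited H2-Q6 and, under PBS, H2-Q7.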
